A study of Mus musculus with 365 samples.

Results

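Ly6D+ progenitors of mouse bone marrow were divided by their own Irf8 transcript, and the 2 sides were compared on each capture chip. A cell was placed on the Irf8-positive side when Irf8 reached 25 CPM (the cell's Irf8 reads scaled by its total reads to a common depth) and on the Irf8-negative side when it lay below. Of 152 Ly6D+ cells, 103 were positive and 49 negative, out of 365 cells in the whole series. The cells were sorted from femurs of C57BL/6 mice carrying the Flt3Ltg transgene, with 2 mice pooled, and belong to EPLM, a bone marrow compartment of early progenitors with lymphoid and myeloid potential. The labels divide it into the Ly6D+ part studied here and a TN (triple negative) part of 213 cells, and both sides of the split come from the same transgenic background, with no wild-type cells beside them. Flt3 ligand drives the expansion of early lymphoid and dendritic progenitors, so all groups share this condition.

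IRF8 is a transcription factor of the interferon regulatory factor family. It binds DNA weakly alone and pairs with ETS factors such as PU.1 and Spi-B, or with other IRF or AP-1 family partners, and it is known for its part in the development of dendritic cells and monocytes and for roles in early B cells. Plasmacytoid dendritic cells, the type I interferon producers, arise from progenitors that can carry lymphoid genes such as Rag1, and Ly6D marks lymphoid progenitors. The comparison addresses which other transcripts went with presence or absence of Irf8 among cells of this sort gate.

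Chips 4, 5 and 6 held 26, 41 and 36 positive cells and 14, 19 and 16 negative cells, so the positive share was 67.5% ± 2.23 (SD, n = 3 chips). The sides were chosen by these Irf8 values, which are given as a description. The median Irf8 level of positive cells was 883, 893 and 603 CPM on the 3 chips, and the highest cell reached 4813 CPM. Of the 49 negative cells, 35 had no Irf8 read and 14 had some. The 3 negative cells nearest the threshold held 16.8, 17.4 and 22.9 CPM, and the 3 lowest positive cells 35.5, 35.7 and 40.1 CPM. Most positive cells thus lay far above the threshold, and most negative cells at 0.

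**Figure D1:**
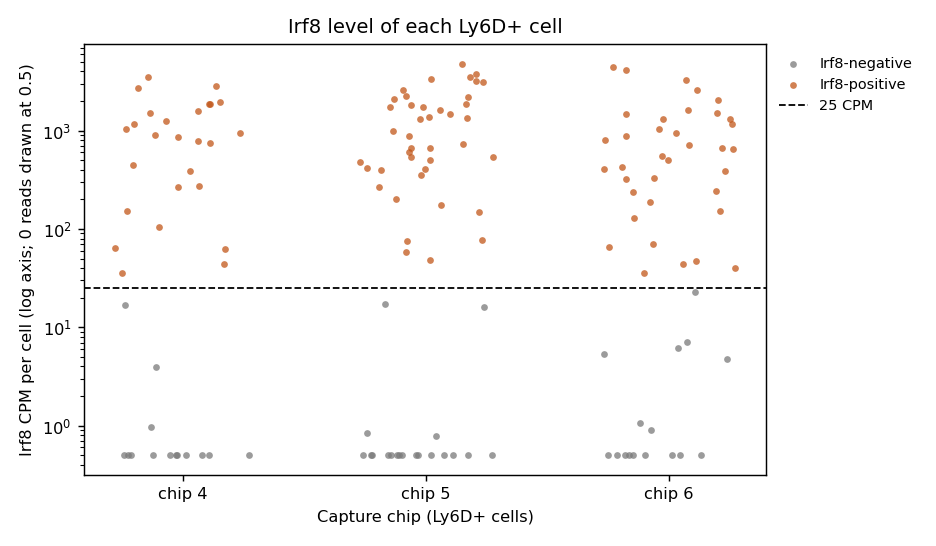
Irf8 CPM of every Ly6D+ cell on a log axis, by capture chip, with 1 point per cell. The dashed line is the threshold of 25 CPM, cells with 0 reads are drawn at 0.5, and the positive medians are 883, 893 and 603 CPM on chips 4, 5 and 6.

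Read depth had no common order between the sides, but the number of genes per cell moved with the split. Median depth was 816446, 1117350 and 941660 reads in negative cells and 946164, 953018 and 881108 reads in positive cells of chips 4, 5 and 6. After each cell was thinned to 200000 reads, 5 reads, equal to 25 CPM, were the minimum for a gene to count as detected. Positive cells had 2917, 2592 and 2979 detected genes on average, Irf8 not counted, and negative cells 2673, 2107 and 2351, a difference of 452 ± 194 (SD, n = 3 chips, exact two-sided sign-flip permutation p = 0.25, the smallest that 3 chips allow). Positive cells were richer on every chip, by 1.09, 1.23 and 1.27 times. The part of this difference in the results below was not tested, and for 15 genes detection within cells of 2000 to 3500 detected genes (36 negative, 88 positive) was also counted.

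No gene passed the paired edgeR test on reads summed per chip and side. Of 10602 genes tested, Irf8 left out, 0 were called higher (0%) and 0 lower (0%) in positive cells at an edgeR adjusted p under 0.05, with a smallest adjusted p of 0.631. An unadjusted p under 0.05 was found for 274 genes in the higher direction (2.58%) and 226 in the lower (2.13%). DESeq2 on the same sums called 363 higher and 178 lower. The limma-trend test, listed as an alternative, weights every cell equally by using the mean of log2(CPM + 1) over the cells of a chip and side. It called 23 higher (0.217%) and 7 lower (0.066%), and "called" below refers to it. All 30 kept their direction in edgeR and DESeq2, and DESeq2 called 6 of the 23 and 7 of the 7. With so small a share of all genes called by limma-trend, 0 calls is the usual count for a short list and no result about it. The median limma-trend difference over all genes was 0.27, and centring each mean profile on its median moved it to −0.18 and the calls to 5 higher and 17 lower. Of the 23 called higher 5 stayed called after centring, and of the 7 called lower 7 did. An unadjusted limma-trend p under 0.05 was found for 1497 genes in the higher and 136 in the lower direction, and after centring for 413 and 1403. Without chip 4 limma-trend called 283 higher and 20 lower, without chip 5 it called 11 and 6, and without chip 6 it called 31 and 14. A sum over cells can be carried by a few high cells, so detection shares are given beside CPM, which below is that of the sums with TMM scaling. Since the assignment of mice to chips is not in the labels, p-values measure chip-to-chip spread alone, some or all of it perhaps technical.

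B-lineage genes were the list with the most calls in the lower direction. Of 22 tested members, 5 were called lower and 0 higher, against 0.066% and 0.217% of all genes. In the lower direction 15 had an unadjusted edgeR p under 0.05, against 2.13% of all genes tested. A negative edgeR log2 fold change was found for 21, and for 4331 of all 10602 genes tested. The median edgeR log2 fold change of the list was −2.17, against 0.24 over all genes tested. For 17 members the 3 negative chip values all lay above the 3 positive ones, where 5.01% of all tested genes did so, and 14 were detected in fewer positive cells on every chip, against 4.49% of all tested genes. The list was written with earlier results of these cells in view and is not independent evidence of its direction. In these sums, fewer cells with a transcript and less transcript per cell cannot be told apart without the detection shares.

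The factors that start the B-cell program come first. Ebf1, which commits progenitors to the B lineage, was detected in 71.4%, 52.6% and 56.2% of negative cells on chips 4, 5 and 6 and in 30.8%, 29.3% and 38.9% of positive cells. Its CPM was 957, 539.5 and 563 in the negative sums and 153, 182 and 343 in the positive sums. The 2 sides did not overlap, and Ebf1 was called lower (log2 difference −2.96 ± 0.58, SE, limma-trend adjusted p = 0.0379). Pou2af1, the coactivator OBF-1 that works with octamer factors in B cells, was detected in 10 of 49 negative cells and 1 of 103 positive cells. Its sums were 49.7, 267 and 45.1 CPM against 0.0801, 3.97 and 0.0579 CPM, and it was called lower (−1.57 ± 0.33, SE, limma-trend adjusted p = 0.0493). Pou2af1 passed the filter on low counts through its negative side, so this call is not independent support for its direction. Foxo1, which acts with Ebf1 and drives Rag transcription, had 306, 150.3 and 198 CPM in negative and 22.1, 134 and 67.1 CPM in positive sums, without passing the threshold (limma-trend adjusted p = 0.111). Pax5, which seals B-lineage identity, was scarce on both sides, with detection in 3 negative cells and 1 positive cell.

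Genes of antigen receptor recombination followed. Rag1, the catalytic subunit of the recombinase, was detected in 57.1%, 68.4% and 62.5% of negative cells and in 15.4%, 31.7% and 25% of positive cells. The sums held 198, 620.2 and 478 CPM against 34.7, 125 and 171 CPM, so the lowest negative chip lay just above the highest positive one. Rag1 was called lower (−3.67 ± 0.54, SE, limma-trend adjusted p = 0.0041), and its edgeR log2 fold change was −2.11 ± 0.37, SE, with an edgeR adjusted p of 0.783. Its partner Rag2 was detected in 42.9%, 63.2% and 31.2% of negative and 19.2%, 19.5% and 33.3% of positive cells, and on chip 6 the order turned. Dntt, which encodes the terminal transferase acting at the same joints, overlapped between the sides, with 5723, 4098 and 3519 CPM in negative and 4385, 3132 and 3792 CPM in positive sums.

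Transcripts of the pre-B cell receptor and its signalling chains came next. Cd79a, a signalling chain of the B cell receptor, had 899.8, 965 and 744 CPM in negative and 117, 303 and 199 CPM in positive sums, and detection of 61.2% ± 4.35 against 28.2% ± 4.61 (SD, n = 3 chips). It was called lower (−3.49 ± 0.55, SE, limma-trend adjusted p = 0.00716), and the sides did not overlap. Cd79b, the other chain, had 791, 1660 and 1206 CPM against 82.8, 472 and 247 CPM, with an edgeR log2 fold change of −2.45 ± 0.33, SE and a limma-trend adjusted p of 0.0784. On chip 6 it was detected in 50% of cells on either side. Vpreb3 was detected in 35.7%, 26.3% and 37.5% of negative and 3.85%, 9.76% and 5.56% of positive cells and was called lower (limma-trend adjusted p = 0.0296). Of the surrogate light chain genes, Igll1 was detected in 14 of 49 and 6 of 103 cells and missed the threshold (limma-trend adjusted p = 0.0536). Vpreb1 was detected in 18 of 49 and 17 of 103 cells.

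Surface and adaptor genes of the lineage varied more. Blnk, the adaptor downstream of the receptor, had 803, 985 and 741 CPM in negative and 426, 228 and 172 CPM in positive sums, yet on chip 5 its detection was 52.6% and 58.5%. Il7r, a chain of the interleukin 7 receptor, had 385, 1244 and 1352 CPM in negative and 381, 374 and 307 CPM in positive sums, so that the sides were nearly level on chip 4. Of 5 tested mature B and plasma cell genes 0 were called, near the share over all genes (0.217% higher and 0.066% lower). By edgeR 4 of the 5 had a negative log2 fold change and 1 a positive one, with a median of −2.10 against 0.24 over all genes. Mzb1, a chaperone of immunoglobulin assembly, had 343, 136 and 373 CPM and 132, 92 and 122 CPM, with detection in 24 of 49 and 49 of 103 cells, and the definitive markers Prdm1 and Ms4a1 were at 0.

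**Figure D2:**
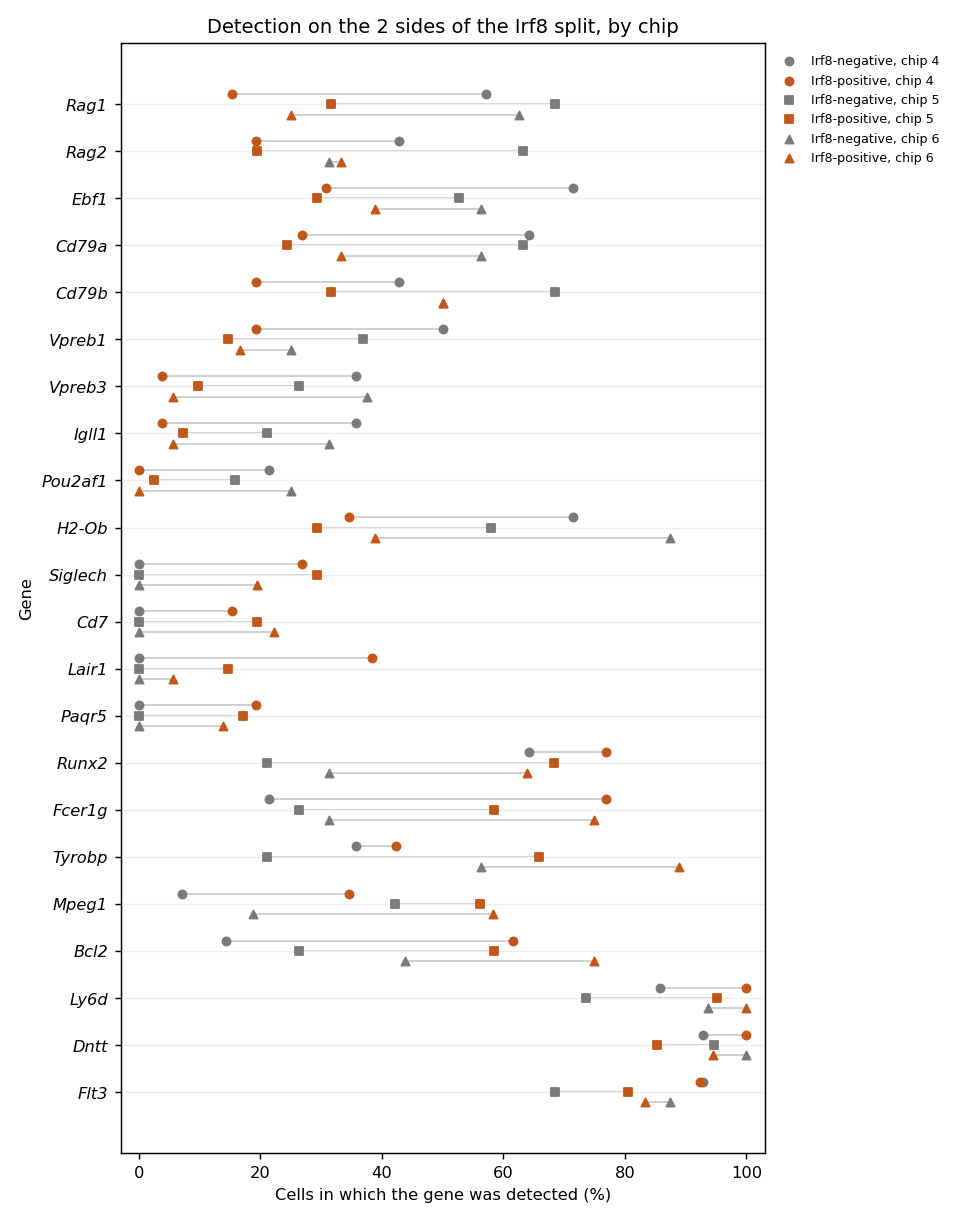
Percentage of cells in which each gene was detected, with 1 grey symbol for Irf8-negative and 1 orange symbol for Irf8-positive cells of each chip, joined by a line. Rag1, Ebf1, Cd79a and Vpreb3 lie to the left in positive cells on every chip, Siglech and Cd7 lie at 0 in negative cells, and Dntt and Flt3 show no common order.

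Plasmacytoid dendritic genes differed in the other direction, but unevenly. Of 22 members 16 were tested, of which 3 were called higher (Siglech, Cd7 and Runx2) and 0 lower, against 0.217% and 0.066% of all genes. Siglech and Cd7 could be called in this direction alone, as given below. By edgeR 13 of the 16 tested members had a positive log2 fold change, as did 6271 of all 10602 genes tested. The median was 1.12 by edgeR, against 0.24 over all genes. In 5 members the positive chip values all lay above the negative ones, against 8.47% of all tested genes, in 1 (Ptprs, a receptor phosphatase) they all lay below, and 9 were detected in more positive cells on every chip, against 27% of all tested genes.

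Siglech, the surface lectin that marks mouse plasmacytoid cells, had reads on the positive side alone. No negative cell held a Siglech read, which allows a share of up to 6.12% of cells with a read (counting error over cells pooled from 3 chips, not a limit on cells expressing the gene), while 26.9%, 29.3% and 19.4% of positive cells on chips 4, 5 and 6 had it detected. The positive sums held 309.8, 197 and 99.8 CPM, at least 3049-fold higher than a floor of 3 reads over all negative cells together, and Siglech was called higher (2.24 ± 0.40, SE, limma-trend adjusted p = 0.0163). Cd7, an immunoglobulin-family surface protein of lymphoid and some plasmacytoid cells, gave 1 read in the negative cells and was detected in 15.4%, 19.5% and 22.2% of positive cells (called higher, limma-trend adjusted p = 0.0448). Lair1, an inhibitory collagen receptor, was detected in 38.5%, 14.6% and 5.56% of positive and 0 of 49 negative cells, and did not pass (limma-trend adjusted p = 0.107). Paqr5, a membrane progestin receptor outside the list, gave 0 reads in negative cells and was detected in 17 of 103 positive cells (called higher, limma-trend adjusted p = 0.047). Each of these genes was detected in a minority of positive cells. Siglech, Cd7 and Paqr5, with 0 or 1 negative read, passed the filter on low counts through their positive reads alone. Only the higher direction was thus possible for them, and their calls are not independent support for it.

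Among the factors of the lineage, Runx2, which supports the maturation of plasmacytoid cells and their exit from marrow, was detected in 64.3%, 21.1% and 31.2% of negative and 76.9%, 68.3% and 63.9% of positive cells. It was called higher (3.09 ± 0.56, SE, limma-trend adjusted p = 0.0216), although on chip 4 the shares were close. Tcf4, the E protein that specifies plasmacytoid cells, overlapped, with 223, 639 and 818 CPM in negative and 607, 682 and 369 CPM in positive sums. Of 6 tested E protein and Id genes 0 were called, near the share over all genes (0.217% higher and 0.066% lower). Spib, an ETS factor of plasmacytoid and B cells, was rare, with detection in 3 of 49 negative and 9 of 103 positive cells. Bst2, an interferon-inducible surface protein, had 118, 206 and 5.27 CPM in negative and 79.6, 158 and 18 CPM in positive sums. Klk1 and Cd209d were at 0, and Tlr9, a sensor of microbial DNA, was detected in 4 of 103 positive cells. The summed level of the list ranged from 3896 to 4088 CPM in negative and from 5113 to 6779 CPM in positive cells.

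At the level of single cells the 2 gene groups were spread differently over the sides. Negative cells had 8.84 ± 0.33 of the 22 B-lineage members detected and positive cells 4.95 ± 0.23 (SD, n = 3 chips), and each of the 3 chips showed this order (exact two-sided sign-flip permutation p = 0.25, the smallest possible, adjusted p = 0.5 over 22 lists). Of the 22 plasmacytoid members, negative cells had 4.74 ± 0.35 and positive cells 6.91 ± 0.63 (SD, n = 3 chips, the same exact p). The range within a side was wide. Negative cells held between 0 and 20 B-lineage members, and 19 of 49 had 10 or more, against 10 of 103 positive cells. No negative cell had more than 8 plasmacytoid members, whereas 19 of 103 positive cells had 10 or more and the highest had 17. On chip 6 only 2 of 36 positive cells reached 10, compared with 6 of 26 on chip 4 and 11 of 41 on chip 5. The count of 10 was chosen after the values were seen.

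**Figure D3:**
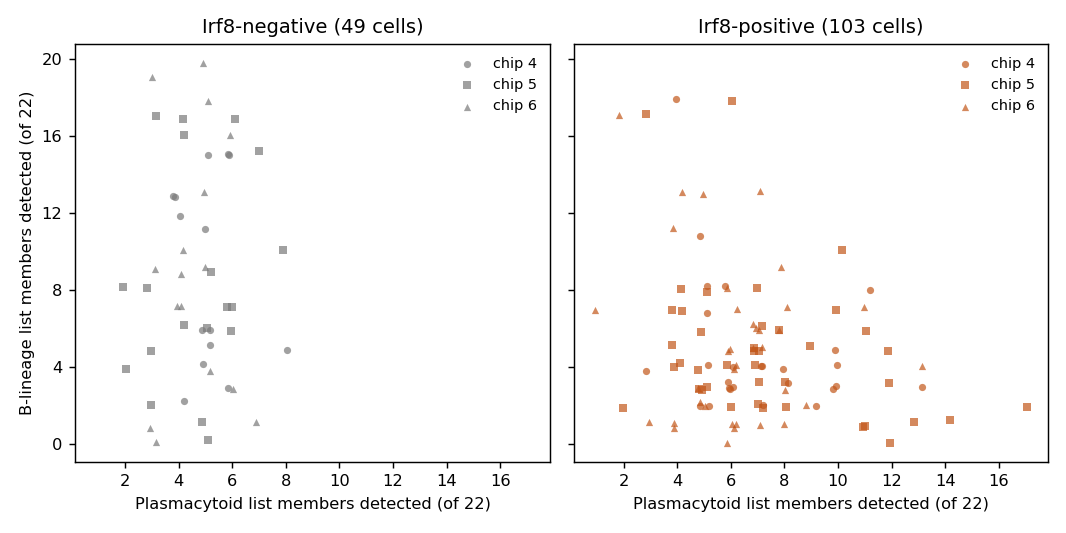
Members of the B-lineage list (vertical axis) and of the plasmacytoid list (horizontal axis) detected in each Ly6D+ cell, with Irf8-negative cells on the left and Irf8-positive cells on the right, 1 symbol per cell with a small random shift. Negative cells spread from 0 to 20 along the vertical axis at no more than 8 plasmacytoid members, and positive cells spread to 17 along the horizontal axis.

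Both kinds of transcript could meet in 1 positive cell. Among 5 B-lineage genes picked after their values were seen (Rag1, Cd79a, Ebf1, Vpreb3 and Igll1), 39 of 49 negative and 53 of 103 positive cells had at least 1 detected, and 24 negative and 13 positive cells had 3 or more. All 5 were found in 10 negative and in 3 positive cells. Of the 26 positive cells with Siglech, 9 also had at least 1 of the 5 genes, 5 had Ebf1 and 3 had Rag1. Siglech cells lay at the upper end of Irf8, with median levels of 1951, 2027 and 2064 CPM on chips 4, 5 and 6 against 451, 537 and 424 CPM in positive cells without it. Positive cells with Rag1 lay lower in Irf8 (74.2, 499 and 243 CPM) than those without (994, 1602 and 710 CPM). With Cd79a the order was not common to the chips, with 451, 575 and 662 CPM against 909.8, 1354 and 524 CPM.

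The negative side was not uniform either. In the 35 cells with no Irf8 read, Rag1 was detected in 24, Cd79a in 22 and Ebf1 in 19. In the 14 cells with some reads below the threshold, Rag1 was detected in 7, Cd79a in 8 and Ebf1 in 10. Siglech and Cd7 were detected in none of the 35 and none of the 14. Ly6d was detected in 27 of the 35 and in 14 of the 14.

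Within cells of 2000 to 3500 detected genes the genes counted kept their order on each chip, apart from Ly6d on chip 6, where the sides were equal. Rag1 was detected in 20 of 36 negative and 21 of 88 positive cells, Ebf1 in 23 and 31, Cd79a in 21 and 24, and Vpreb3 in 10 and 4. Siglech was detected in 0 of 36 and 23 of 88 cells, Cd7 in 0 and 18, and Fcer1g in 12 and 64. H2-Ob was detected in 28 and 30 cells, Pou2af1 in 7 and 0, Bcl2 in 12 and 60, Runx2 in 17 and 61, and Tyrobp in 16 and 60. Ly6d was detected in 33 of 36 and 88 of 88 cells, and on chip 6 in all cells of the negative side too. Mean detected genes still differed in these cells, with 2731, 2582 and 2637 in negative and 2867, 2753 and 2992 in positive cells. Here limma-trend called 1 gene higher, Ly6d (1.92, adjusted p = 0.00102), and 1 lower, H2-Ob (−3.73, adjusted p = 0.0305), and all 30 genes called over all cells kept their direction.

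H2-Ob was the 1 called member of the MHC class II list. It encodes a chain of the H2-O modulator that restrains peptide loading onto MHC class II molecules in B cells. Its CPM was 421, 858 and 725 in negative and 90.3, 214 and 150.4 in positive sums, and its detection was 71.4%, 57.9% and 87.5% against 34.6%, 29.3% and 38.9%. It was called lower (−3.60 ± 0.54, SE, limma-trend adjusted p = 0.00463), with no overlap between the sides. Of the other 9 members of the MHC class II list 0 were called, near the share over all genes (0.217% higher and 0.066% lower). In 2 of the 10, H2-Ob among them, the negative chip values all lay above the positive ones, and in 0 the reverse. Over all genes these shares were 5.01% and 8.47%. Detection was lower in positive cells on every chip for 2, again with H2-Ob, and higher for 1, against 4.49% and 27% of all genes. H2-Aa, an antigen-presenting chain, gave 234, 24.3 and 4.32 CPM in negative and 0.32, 557 and 110.1 CPM in positive sums, opposite orders on different chips. Ciita, the master regulator of the class II genes, was detected in 3 negative cells and 1 positive cell. Its edgeR log2 fold change was −8.63 (edgeR adjusted p = 0.977, DESeq2 adjusted p = 0.000284).

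Of the receptor adaptors and lysosomal genes, Fcer1g was called. Fcer1g, an ITAM adaptor of Fc receptors, was detected in 21.4%, 26.3% and 31.2% of negative and 76.9%, 58.5% and 75% of positive cells. It was called higher (3.39 ± 0.56, SE, limma-trend adjusted p = 0.00924). Its sums overlapped, with 47.5, 166 and 167 CPM against 181, 156 and 225 CPM. Tyrobp, the adaptor DAP12, was detected in 35.7%, 21.1% and 56.2% of negative and 42.3%, 65.9% and 88.9% of positive cells (limma-trend adjusted p = 0.111). Of 11 tested innate receptor and adaptor genes 1 was called higher and 0 lower, and 6 were detected in more positive cells on every chip, against 0.217% called higher and 27% detected in more positive cells over all genes. Lat2, a membrane scaffold of immune receptor signalling outside the list, was called higher (limma-trend adjusted p = 0.047). All 11 lysosomal genes had a positive limma-trend difference, with 0 called, and 7 were detected in more positive cells on every chip, against 27% of all genes. The median limma-trend difference of the 11 was 0.997, against 0.27 over all genes. By edgeR 8 of them were positive and 3 negative, with a median of 0.42 against 0.24. Over all 10602 genes tested, 6271 were positive and 4331 negative by edgeR. Ctsb, cathepsin B, had 206, 226 and 302 CPM in negative and 669.6, 677 and 308 CPM in positive sums, close to level on chip 6.

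Bcl2, which encodes the anti-apoptotic mitochondrial protein, was detected in 14.3%, 26.3% and 43.8% of negative and 61.5%, 58.5% and 75% of positive cells. The sums held 36.3, 39.1 and 113 CPM against 345, 209 and 286 CPM, without overlap, and it was called higher (3.14 ± 0.54, SE, limma-trend adjusted p = 0.0132). Ly6d itself, the gene of the sort, was detected in 41 of 49 negative and 101 of 103 positive cells. Its sums held 1275, 1354 and 2026 CPM against 3720, 3406 and 2678 CPM, and it was called higher (2.43 ± 0.33, SE, limma-trend adjusted p = 0.00214). Of the other genes linked to the sort, Ptprc, the common leukocyte antigen, had 783, 859 and 511 CPM and 549.7, 964 and 705 CPM, with overlap. Kit, the stem cell factor receptor, was detected in 15 of 49 and 21 of 103 cells. Itgax was detected in 2 and 6 cells and Klrb1c in 0 and 1.

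Further genes outside the lists were called higher. Rps6ka1, a ribosomal S6 kinase of the ERK pathway, was detected in 26.3% ± 4.91 of negative and 63.5% ± 5.88 of positive cells (SD, n = 3 chips). Mn1, a transcriptional coregulator, was detected in 38.3% ± 15.2 and 72.1% ± 8.68, and Tmem229b, a transmembrane protein, in 19.6% ± 12.6 and 64.5% ± 15 (SD, n = 3 chips). The remaining calls were BC035044, Mbnl3, Snrpb, Fignl1, Mcmbp, Cope, Tagln2, Cox6a1, Bex6 and Zmiz1, of which Mbnl3, Fignl1 and Mcmbp had CPM without overlap. Cecr2, a bromodomain protein of chromatin remodelling, was called lower (393, 686 and 806 CPM against 135, 106 and 43.5 CPM, limma-trend adjusted p = 0.0448). The genes of smallest unadjusted edgeR p, none past the adjusted threshold, included on the higher side St8sia4, a polysialyltransferase (edgeR log2 fold change 3.38 ± 0.72, SE), Zfp592, Zfp445, Sec24c, Xiap, Ppp4r1 and Rassf5. On the lower side they included Smap2, Btg2, Pde2a, Adgrg3 and Gimap6, a lymphoid GTPase (edgeR log2 fold change −1.21 ± 0.18, SE). Gimap6 was detected in 46 of 49 and 95 of 103 cells, and its level was 1230, 1792 and 1776 CPM against 574, 790.2 and 695 CPM.

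Of 20 genes of DNA replication (G1/S), 16 were detected in more positive cells on every chip and 1 in fewer, against 27% and 4.49% of all genes. The G1/S list averaged 8.64, 6.95 and 8.88 of 20 members in negative and 11.4, 9.78 and 11.4 in positive cells, with the order the same on each chip and a difference of 2.73 ± 0.14 (SD, n = 3 chips, exact two-sided sign-flip permutation p = 0.25). Mcm4 and Mcm5, subunits of the replicative helicase, were called higher (limma-trend adjusted p = 0.0493 and 0.0493), as 2 of 20 members, against 0.217% of all genes. Mcm5 was detected in 42.9%, 31.6% and 50% of negative and 73.1%, 65.9% and 75% of positive cells. In cells of 2000 to 3500 detected genes the gap was narrow on some chips. Mcm4 was then detected in 83.3% of negative and 87.5% of positive cells on chip 5 and in 81.8% and 87.1% on chip 6, and Mcm5 in 72.7% and 77.4% on chip 6. Members detected per cell were 1.33 times higher in positive cells, beside 1.19 times for all genes. By sums the list's median edgeR log2 fold change was 0.37, against 0.24 over all genes. Of 20 mitotic (G2/M) genes 0 were called, and chip 6 differed most, where negative cells had 2.69 and positive cells 7.97 members detected. On chip 4 these values were 5.93 and 6.23. Mki67, a proliferation antigen, had 516, 856 and 2.16 CPM in negative and 363, 548 and 632 CPM in positive sums.

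Conventional dendritic and myeloid genes gave no calls. Of 6 tested conventional dendritic and 15 tested granulocyte and monocyte genes, 0 were called by edgeR or limma-trend. Over all genes limma-trend called 0.217% higher and 0.066% lower and edgeR 0%, so the counts in this paragraph lie near that share. Id2, an E protein inhibitor of dendritic and innate cells, had 54.3, 337 and 89.5 CPM in negative and 116, 95.9 and 479 CPM in positive sums. Cst3, a cathepsin inhibitor abundant in dendritic cells, was detected in 35 of 49 and 90 of 103 cells, and Batf3, a partner of IRF8 in cross-presenting cells, in 0 and 1. Mpo, the myeloperoxidase gene, was detected in 7 of 49 negative and 12 of 103 positive cells. Csf1r, the macrophage growth factor receptor, was detected in 4 and 5, and Elane, Cebpe and Ms4a3 were at 0. Of 11 erythroid and megakaryocyte genes 10 were at 0, and of 12 mature neutrophil, mast cell and basophil genes 7 were at 0. Of 16 T, NK and innate lymphoid genes 6 were at 0, Cd3e among them, and of 5 tested 0 were called. Of 6 tested stem and multipotent and 4 tested sex-linked genes 0 were called. The summed sex-linked list held 748, 815 and 501 CPM in negative and 260, 411 and 446 CPM in positive cells, without overlap. All 4 tested members had a negative edgeR log2 fold change, as did 4331 of all 10602 genes tested, while by limma-trend 2 were positive and 2 negative. The cause of this difference was not tested.

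Other members of the IRF family gave no calls, near the share over all genes (0.217% higher and 0.066% lower). Of the other 8 family genes, 2.56 ± 0.68 were detected per negative and 2.55 ± 0.46 per positive cell (SD, n = 3 chips). Irf4, the nearest relative, was detected in 6 of 49 and 7 of 103 cells, and Irf5 in 7 and 18. Irf7, itself interferon-induced, had 319.5, 417 and 15.9 CPM in negative and 132, 312 and 6.68 CPM in positive sums. Interferon response genes varied more between chips than between sides, with 8.57, 7.16 and 1.94 of 17 members detected in negative and 6.46, 7.27 and 2.44 in positive cells. Usp18, an interferon-induced protease, had 797, 1919 and 209 CPM against 357, 1164 and 107 CPM (edgeR adjusted p = 0.977). Spi1, which encodes PU.1, was low, with detection in 5 of 49 and 9 of 103 cells. Of the 13 tested IRF8 partners and reported targets, Bcl2 was called higher and Pou2af1 lower, against 0.217% and 0.066% of all genes.

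Early lymphoid genes were detected widely on both sides. Of 15 tested, 0 were called, near the share over all genes (0.217% higher and 0.066% lower). Positive cells had 10.2 ± 0.56 and negative cells 9.47 ± 0.86 detected (SD, n = 3 chips). Flt3, the receptor for the ligand of the transgene, had 903, 363 and 454 CPM in negative and 462, 486 and 466 CPM in positive sums. Bcl11a, a factor needed for lymphoid and plasmacytoid cells, had 783, 655 and 226 CPM and 497, 414 and 239.5 CPM. Immediate-early and heat shock genes, which can respond to cell handling, gave 0 calls among 9 tested. Of these, 8 had a negative edgeR log2 fold change, as did 4331 of all 10602 genes tested. Among the 9, Egr1 had the lowest unadjusted p (−1.51 ± 0.41, SE, edgeR adjusted p = 0.977).

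Among positive cells alone, some of the called genes ranked with the Irf8 level and others did not. Spearman rank correlations with Irf8 CPM were computed within each chip for 4973 genes and averaged over the 3 chips. They describe cells that share a library preparation and carry no p-value. Siglech had a mean rho of 0.54 (0.72, 0.45 and 0.43 on chips 4, 5 and 6), Tspo, a mitochondrial membrane protein, 0.54, Ly6d 0.46, Rnase6, a secreted ribonuclease of the plasmacytoid list, 0.45, and Runx2 0.44. At the other end were Calcrl, a peptide hormone receptor chain, at −0.51, Dntt at −0.43 and Rag1 at −0.43. Other called genes had values near 0, among them Cd79a at −0.12, Cox6a1 at −0.12, Mn1 at −0.05 and Cope at 0.03. Dntt, which overlapped between the sides, thus ranked lower where Irf8 was higher within the positive side. The median over all genes ranked was 0.02, and the number of detected genes had a mean rho of 0.11 with Irf8 in these cells, compared with 0.35 over all Ly6D+ cells.

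**Figure D4:**
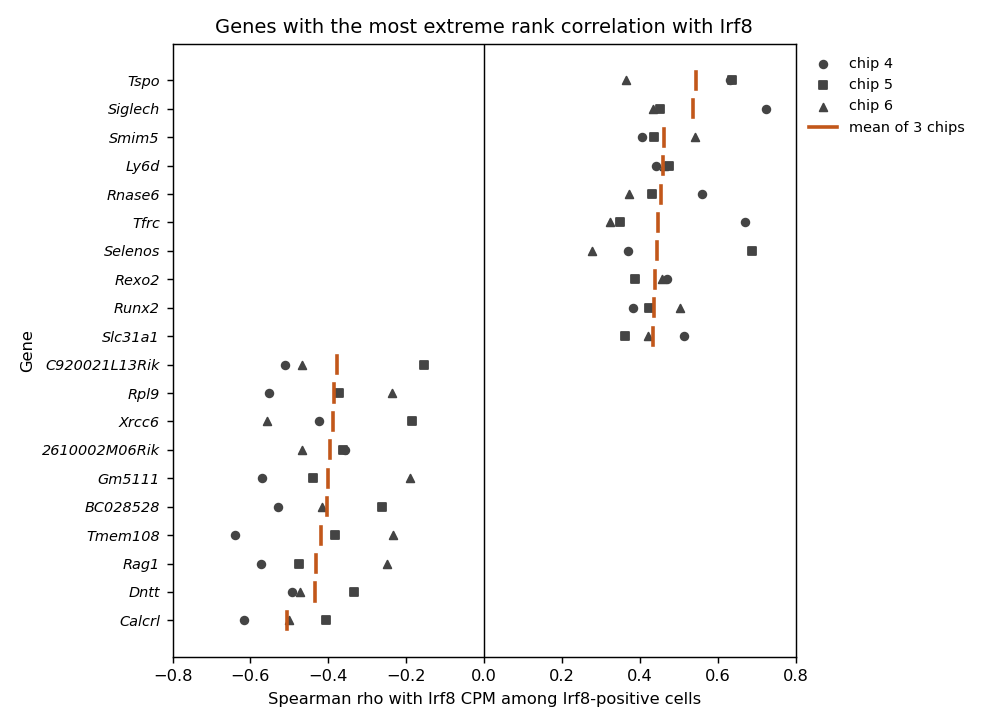
Spearman rank correlation with Irf8 CPM among Irf8-positive Ly6D+ cells, for the 10 highest and 10 lowest genes by mean over chips, with 1 symbol per chip and a bar at the mean. Siglech reaches 0.72 on chip 4, and Calcrl, Dntt and Rag1 lie lowest by their means.

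The same split made in TN cells served as a comparison. There 171 cells were positive and 42 negative, with only 5 negative cells on TN chip 3. No gene passed edgeR's interaction test of the split between the 2 populations (0 of 11746, 0%, with 462 at an unadjusted p under 0.05 and a smallest adjusted p of 0.208). DESeq2 called 156 with a higher and 238 with a lower difference in Ly6D+ cells, and limma-trend called 0 and 4, the 4 being Prtn3, Tifab, Aif1 and F13a1. Some genes had the same order in both. Fcer1g was detected in 38.1%, 37.5% and 40% of Irf8-negative and 88.9%, 88.7% and 85.9% of Irf8-positive TN cells of chips 1, 2 and 3. H2-Ob was detected in 42.9%, 31.2% and 40% against 25.9%, 15.1% and 12.5%.

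Cd7 and Mn1 had the opposite order. Cd7 was detected in 47.6%, 37.5% and 60% of Irf8-negative TN cells and in 24.1%, 20.8% and 21.9% of Irf8-positive ones, an order opposite to that in Ly6D+ cells (edgeR interaction adjusted p = 0.208). Mn1 was detected in 61.9%, 43.8% and 20% against 22.2%, 32.1% and 15.6%, also lower in positive cells (limma-trend interaction adjusted p = 0.0511). Bcl2 was detected in 65.6% of negative and 65.7% of positive TN cells as means of 3 chips (edgeR interaction adjusted p = 0.84). Rag1 was detected in 5.75% of negative and 0% of positive TN cells, and Cd79a in 6.25% and 0%. Siglech was detected in 13%, 9.43% and 9.38% of Irf8-positive TN cells. Il7r, lower in positive cells of both populations, had TN detection of 38.1%, 50% and 40% against 7.41%, 13.2% and 4.69% (edgeR interaction adjusted p = 0.84).

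**Figure D5:**
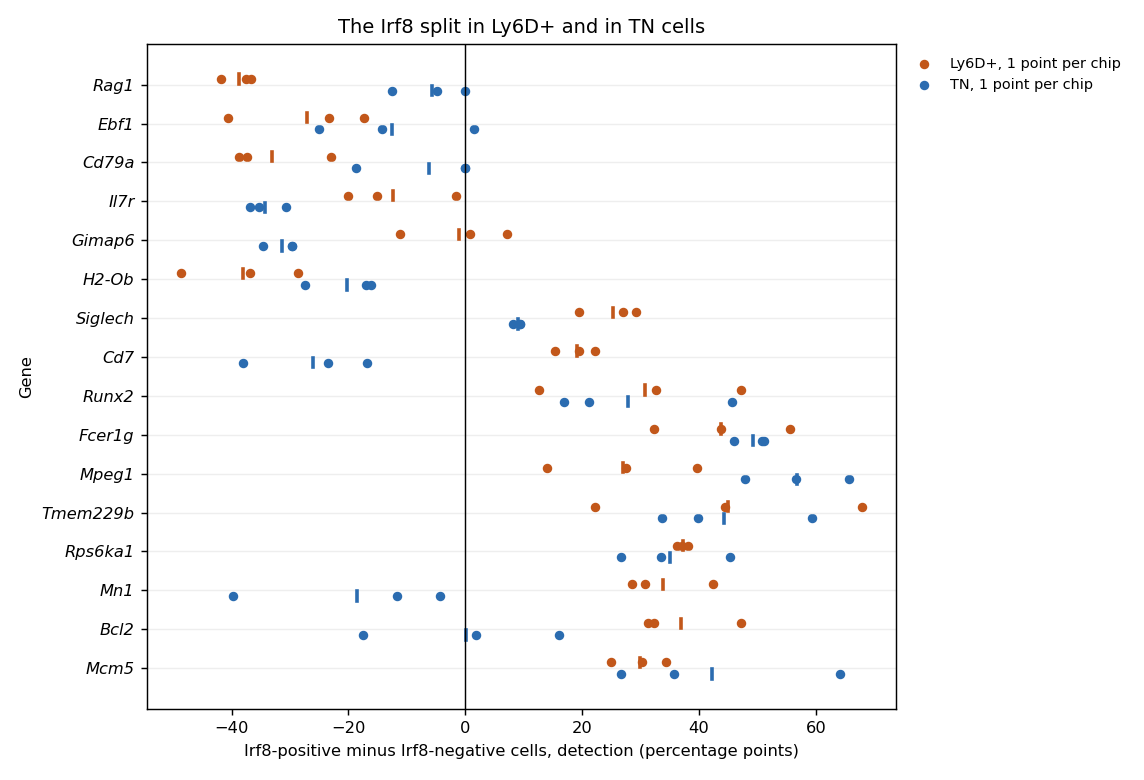
Difference in detection between Irf8-positive and Irf8-negative cells, in percentage points, for 16 genes, with 1 orange point per Ly6D+ chip, 1 blue point per TN chip and a bar at the mean of 3 chips. Fcer1g lies to the right in both populations, and Cd7 lies to the right in Ly6D+ and to the left in TN cells.

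IRF8 with an ETS partner is known to bind the ETS-IRF composite element, searched here as GGAA and GAAA with 2 bases between them, and the interferon response element was searched as GAAA and GAAA with 2 bases between them, each on both strands. The 2 patterns can overlap. RefSeq promoters (GRCm38.p6, 250 bases before to 50 after each start) were found for 23 of 30 named genes higher and 10 of 13 lower in positive cells. The composite element occurred in 2 of 28 promoters of the former and 0 of 15 of the latter, and in 2.715% of all 32851 promoters. The response element occurred in 1 of 28 and 1 of 15, and in 3.443% of all promoters. The matches describe letters and not binding sites. They are shown because the named genes held no others beside 1 overlapping match in Zmiz1, with the motif in capitals and 10 bases on each side, 5′ to 3′ on the strand of the motif.
Sec24c, composite element, chr14:20674105-20674134, plus strand: ggaaaaatctGGAAAGGAAAgaaaaaaaaa
Zmiz1, composite element, chr14:25459024-25459053, plus strand: ggagagaggcGGAAAGGAAAggaaaagaga
Cope, response element, chr8:70302679-70302708, minus strand: cagaggcgatGAAAAAGAAAccttgcaaag
Ebf1, response element, chr11:44617935-44617964, minus strand: gaaaaaaaaaGAAAGGGAAAatccaacgaa
Siglech, Rag1, Cd79a, H2-Ob and Bcl2, described above, held neither pattern in these windows.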

How the data were processed

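Single cells were captured on 3 C1 chips per population and made into full-length SMARTer cDNA libraries without molecular identifiers, per the labels' protocols, and this chemistry keeps no strand. The deposited table holds the authors' raw read counts per gene and cell. The submitters' processing notes name the mm9 build and R 3.2.0. No aligner, counter or annotation is named in the labels or the file. The authors kept cells by mapped share, counts and detected genes, per the series' design text. No doublet caller was applied, and the labels do not speak of doublets. Of 23427 genes listed by Entrez number, 23334 were matched to symbols in a RefSeq table (GRCm38.p6) and 93 were not.

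Counts of the cells on each side of the split were summed per chip, since cells are not replicates. The sums were tested with edgeR 4.0.16 (quasi-likelihood, TMM, filterByExpr, chip as a block because both sides share it), with p adjusted by Benjamini-Hochberg over all genes tested and SE taken as the log2 fold change over the root of F. DESeq2 1.42.0 on the sums and limma-trend (limma 3.58.1) on mean log2(CPM + 1) per chip and side were alternatives, run in R 4.3.3. Python 3.11.15 did the rest. Cells were thinned to 200000 reads for detection (the shallowest held 267852). The steps were tested on simulated data, where edgeR on these sums recovered a minority of the changes put in, with more false calls than the adjusted threshold allows for. That outcome covers edgeR and not limma-trend, which made the calls named above. A separate run of limma-trend on simulated cell means was made, and its outcome is not reported here. Reads without molecular identifiers are not independent molecules, so limits cover counting error only.

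Genes named were the calls, filled to 10 per direction by smallest unadjusted edgeR p among genes with an absolute log2 fold change of 1 or more, 1 direction on all chips and detection in 20% or more of the higher side, the leading members of 22 gene lists, and 26 set genes. The limma-trend calls were named after their values were seen. The members and the lists were chosen with earlier results of these data known. The values of 1 gene of the B-lineage list are not reported here.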

Additional observations from a re-analysis of the deposited data

How the results depend on the processing

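edgeR gave 0 calls in either direction under each setting tried: no filter on low counts, no replicate block, thinning, Irf8 thresholds of 10 CPM, 50 CPM or any read, both filters on detected genes, and each chip left out in turn. DESeq2 gave 363 higher and 178 lower, and limma-trend 23 and 7. The limma-trend alternatives were added after the data were seen. Its calls were 1 higher and 1 lower in cells with 2000 to 3500 detected genes, 9 and 3 after thinning, 12 and 5 at a threshold of 10 CPM and 2 and 2 with any read. They were 3 and 3 without the replicate block, the pairing by chip, and 5 and 17 after centring. Without cells under 1500 detected genes there were 20 and 11. With 1 chip left out the calls ranged from 11 to 283 higher and from 6 to 20 lower. Of the 23 genes called higher over all cells, 5 stayed called after centring and 3 without the block. With any read 2 of the 23 stayed called, and in cells with 2000 to 3500 detected genes 1 did. Of the 7 called lower, 7, 3, 2 and 1 stayed called in the same 4 settings. For the interaction with TN, edgeR gave 0 calls under each setting, DESeq2 394 and limma-trend 4. The difference in detected genes per cell was 452 and ranged from 354 to 601 over the detection minimum, the Irf8 thresholds and the filter on low cells, and from 364 to 556 with 1 chip left out. The pairing comes from both sides sharing a chip, and without that block edgeR gave 0 calls. The results below changed sign, and the cause was not tested.

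With detection at 10 reads, the difference in members detected per cell was −0.0567 for granulocyte and monocyte progenitor, 0.128 for interferon regulatory factors other than Irf8 and −0.0536 for sex-linked. At a threshold of 50 CPM, the log2 fold change was −0.34 for Id2, −2.60 for Irf4, −0.78 for Kit and 0.0839 for Spi1. At a threshold of 50 CPM, the difference in members detected per cell was −0.0194 for granulocyte and monocyte progenitor and −0.151 for E proteins and Id inhibitors. Without cells under 1500 detected genes, the log2 fold change was 4.74 for Csf1r. Without cells under 1500 detected genes, the difference in members detected per cell was −0.0279 for granulocyte and monocyte progenitor, −0.00463 for E proteins and Id inhibitors, 0.00326 for mature neutrophil, mast cell and basophil and −0.0335 for sex-linked. With detection at 1 read, the difference in members detected per cell was 0.242 for interferon regulatory factors other than Irf8, 0.116 for stem and multipotent and −0.0973 for sex-linked. At a threshold of 10 CPM, the difference in members detected per cell was 0.0495 for interferon regulatory factors other than Irf8 and −0.0268 for sex-linked. By limma-trend, the log2 fold change was 0.77 for Bcl11a, 0.75 for Cst3, −0.25 for Irf4, 0.37 for Irf5, −0.46 for Kit and 0.0317 for Spi1. With any Irf8 read counted as positive, the log2 fold change was 0.0994 for Bcl11a, 4.18 for Ciita, 1.37 for Mpo, 1.56 for Pde2a and 1.26 for Spi1. Without the replicate block, the log2 fold change was −0.37 for Bst2, 0.29 for Irf5, −0.14 for Kit and −0.0175 for Tcf4. In cells with 2000 to 3500 detected genes, the log2 fold change was 4.79 for Csf1r. With 1 chip left out the log2 fold change ranged from −0.47 to 0.68 for Bst2, from −0.46 to 0.22 for Flt3, from −0.36 to 1.76 for Id2 and from −0.0231 to 4.80 for Irf4. For further results the log2 fold change ranged from −1.70 to 1.21 for Irf5, from −0.56 to 0.80 for Kit, from −0.57 to 3.74 for Mki67 and from −0.61 to 0.50 for Spi1. For further results the log2 fold change ranged from −0.53 to 0.77 for Tcf4. With 1 chip left out the difference in members per cell ranged from −0.509 to 0.121 for MHC class II, from −0.159 to 0.064 for interferon regulatory factors other than Irf8, from −0.9997 to 0.309 for interferon response and from −0.00598 to 0.0929 for E proteins and Id inhibitors. For further results the difference in members per cell ranged from −0.0702 to 0.00329 for stem and multipotent, from −0.00709 to 0.0887 for erythroid and megakaryocyte, from −0.0404 to 0.0278 for mature neutrophil, mast cell and basophil and from −0.224 to 0.425 for sex-linked.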
